A study of Saccharomyces cerevisiae with 37 samples.

Results

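The proteasome of budding yeast was followed here as 32 transcripts, the rows of the deposited count table for 14 genes of the 20S core (PRE, PUP and SCL1) and 18 genes of the 19S cap (RPN and RPT), out of 6464 genes in all. All 32 passed the filter on low counts, which left 4995 genes for testing. Members were chosen by gene name, with earlier results of these data known. The libraries came from haploid MAT A yeast of the BY4741 background: an array strain (BMY3661, genotype GFA1 25x Gene array, with GFA1 behind the CUP1 promoter per the series design) and a wild-type strain (WT, BMY1051), sequenced from the 3′ ends of mRNA with Lexogen QuantSeq. Cultures grown in rich medium (YPD) were washed and kept about 2 h in copper-free minimal medium, sampled at 0 min, given copper sulfate, and sampled again every 5 min up to 30 min, then at 45 min and at 60 min. The copper dose is written as 500 uM in one protocol field and as 500 mM in another, and the unit was not settled here. Each strain and time had 2 libraries, except WT at 0 min with 3, for 18 array and 19 WT libraries. All array libraries carry the strain label BMY3661, but the columns of array replicate 2 have another strain number than those of replicate 1, and whether these are separate isolates is not stated. Every sample later than 0 min had copper, which leaves its effect and that of the elapsed time confounded: they cannot be told apart.

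The proteasome degrades proteins marked with ubiquitin. Its core is a barrel of stacked alpha and beta rings with the proteolytic sites inside, and its cap recognises ubiquitin, removes it, and unfolds the substrate with a ring of ATPases. In yeast the subunit genes share a short promoter element, the proteasome-associated control element, bound by the transcription factor Rpn4, which the proteasome itself degrades, so that levels of the enzyme and of its transcripts are coupled. Assembly chaperones build core and cap separately before they join.

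The element was searched as GGTGGCAAA (reverse complement TTTGCCACC), on both strands, from 250 bases before to 50 bases after each annotated gene start in the R64 genome from RefSeq. It was present in the windows of 27 of the 32 genes (84.4%), 12 of 14 core and 15 of 18 cap genes, and in 72 of 6001 windows of all protein-coding genes (1.2%). It lay on the strand of the gene in 19 of the 27 and on the opposite strand in 8. Its first base stood 84 to 183 bases before the start, with a median of 120.0 bases. Sites of 12 members whose changes or calls are described below are printed with 10 bases on either side, on the strand of the gene, with the element in capitals and with their R64 coordinates. The core sites belong to the catalytic subunits PRE3 and PRE2, the beta subunits PRE4 and PRE1 and the alpha subunits PRE8 and PRE9. The cap sites belong to the scaffold RPN1, the deubiquitinase RPN11, the lid subunits RPN6 and RPN5 and the ATPases RPT5 and RPT1.
PRE3, chrX:435035-435063, plus strand: aacggaatccGGTGGCAAAaaagggaaaa
PRE2, chrXVI:732184-732212, plus strand: acagcaaaagGGTGGCAAAacgaagaata
PRE4, chrVI:249959-249987, minus strand: tggtttagaaTTTGCCACCttaaatacgt
PRE1, chrV:177683-177711, plus strand: aaatctttacGGTGGCAAAaaataaagaa
PRE8, chrXIII:86841-86869, minus strand: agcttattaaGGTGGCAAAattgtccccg
PRE9, chrVII:761223-761251, plus strand: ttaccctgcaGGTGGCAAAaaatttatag
RPN1, chrVIII:164838-164866, minus strand: tgtgttttacGGTGGCAAAaggcgagcac
RPN11, chrVI:153259-153287, plus strand: ggacctccaaGGTGGCAAAttcacaagaa
RPN6, chrIV:286790-286818, minus strand: tggttccaagGGTGGCAAAtgttggtaga
RPN5, chrIV:190776-190804, plus strand: ttgacttttcGGTGGCAAAatgcaaaggg
RPT5, chrXV:544855-544883, plus strand: gccaatatgtGGTGGCAAAaatgaattaa
RPT1, chrXI:174048-174076, plus strand: attaccgaatTTTGCCACCcgaaaactaa
The exact letters were not found in the windows of PRE5 (YMR314W), PUP1 (YOR157C), RPN8 (YOR261C), RPN10 (YHR200W) and RPN13 (YLR421C). The windows of 1 called core gene and 1 called cap gene are shown whole, though some alternatives ended each call: PRE4 (YFR050C), on the minus strand at chrVI:249817-250116 and holding the element, and RPN10, on the plus strand at chrVIII:498829-499128 and without it.
PRE4 promoter: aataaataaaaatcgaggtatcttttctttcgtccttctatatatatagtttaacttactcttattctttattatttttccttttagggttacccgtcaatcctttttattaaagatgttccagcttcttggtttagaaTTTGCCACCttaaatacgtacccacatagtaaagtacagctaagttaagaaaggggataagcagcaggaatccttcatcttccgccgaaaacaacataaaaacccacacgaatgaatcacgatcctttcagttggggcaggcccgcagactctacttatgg
RPN10 promoter: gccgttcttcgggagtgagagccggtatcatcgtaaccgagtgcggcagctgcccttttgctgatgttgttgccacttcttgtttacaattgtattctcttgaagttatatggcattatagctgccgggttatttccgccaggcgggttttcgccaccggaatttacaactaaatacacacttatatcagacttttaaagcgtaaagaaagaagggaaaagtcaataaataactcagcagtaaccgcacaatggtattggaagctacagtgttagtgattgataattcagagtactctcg
A match describes the letters of a window and is not a measured binding site.

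Gene counts per library ran from 305028 to 887971, and both ends were WT 0 min libraries. GFA1, the gene of the array, stood at 1644 to 21850 counts per 1e6 gene counts over the array libraries. Over the WT libraries it stood at 34.9 to 423, without overlap. For GFA1 alone the plain gene count total was the divisor. All other CPM here are counts per 1e6 of a TMM-adjusted library size, which differs from that total. The WT 0 min libraries stood apart from one another in the proteasome genes. On a log2 scale relative to each gene's mean over libraries, the core averaged -0.62 and the cap 0.15 in replicate 1, the core -0.02 and the cap -0.10 in replicate 2, and the core 0.35 and the cap 0.33 in replicate 3. Replicate 1 also had the fewest gene counts (305028) and the most reads in no annotated gene (50.6%, against 34.8% to 46.4% in the other 36 libraries). Every WT comparison with 0 min rests on these 3 libraries, and where leaving one out ended the call of a member, the value without it stands beside the call.

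Proteasome transcripts varied little over the hour after copper. The mean level ran from 69.4 CPM for PUP3 (YER094C) to 1029 CPM for RPN1 (YHR027C), as 3′ tags not divided by gene length. The SD of log2 CPM over all 37 libraries had a median of 0.21 among the 32 genes and 0.40 among all tested genes, a group that extends to lower counts. Without the 0 min libraries the medians were 0.17 and 0.35. After 0 min, the highest library was less than 2 times the lowest for 27 of the 32 genes, with a median ratio of 1.67. The widest ratios were 2.99 for PRE4, 2.79 for PRE8 (YML092C), 2.20 for RPN10, 2.02 for RPN3 (YER021W) and 2.01 for PUP3, and the narrowest was 1.40 for the lid gene RPN7 (YPR108W). CPM are relative to the rest of a library, so fewer cells carrying a transcript and less of it per cell cannot be told apart. The strand setting of the counting is not given in the sources used here, so reads of a gene and of an overlapping antisense transcript cannot be told apart either.

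**Figure D1:**
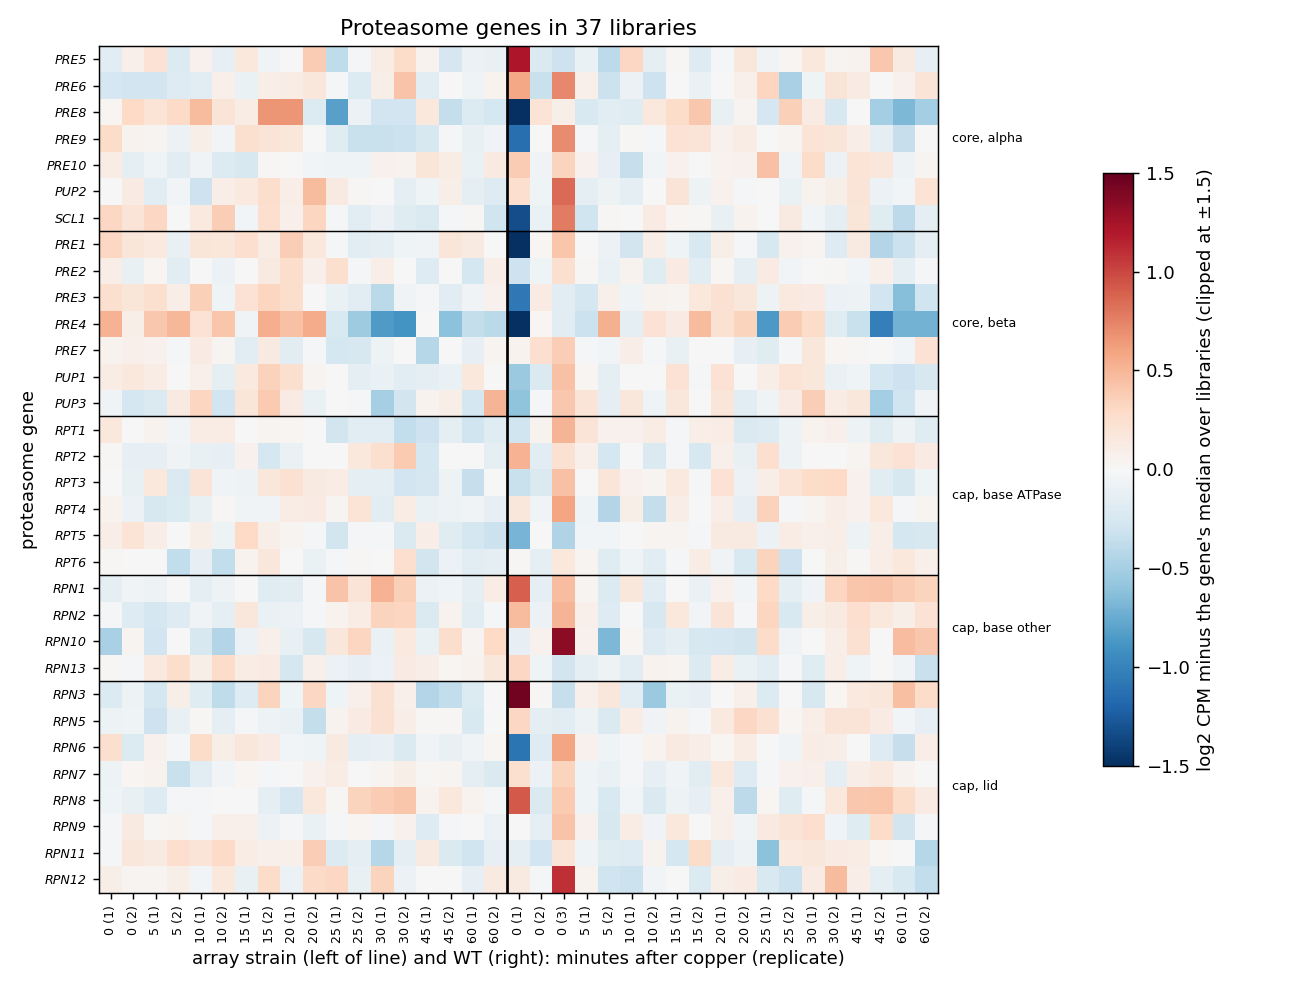
Level of each of the 32 proteasome genes (rows, core above cap) in each of the 37 libraries (columns, array libraries left of WT, in order of time). Values are log2 CPM relative to the gene's median over libraries, with the colour scale clipped at both ends. The core rows depart most in the WT 0 min libraries. There the core average, relative to each gene's mean instead, was -0.62 in replicate 1 and 0.35 in replicate 3.

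Changes from 0 min in WT were tested with edgeR over windows of 2 times, with Benjamini-Hochberg adjustment over all 4995 genes and calls at adjusted p under 0.05. The percentages of all genes refer to calls by edgeR. Member counts at an unadjusted p or by DESeq2, here and below, stand without their share over all genes. They are therefore not set against a background and are not results about the members. At 15-20 min 2 proteasome genes were called, both of the cap and both lower, while 12.5% of all genes were called. At 5-10 min 0 of 32 were called (2.4% of all genes), with 12 at an unadjusted p under 0.05 and 4 called by DESeq2. At 25-30 min 0 were called (10.2% of all genes), with 6 at an unadjusted p under 0.05 and 0 by DESeq2. At 45-60 min 0 were called (1.58% of all genes), with 1 at an unadjusted p under 0.05 and 0 by DESeq2. With culture as a replicate block the members called were 2 at 5-10 min (7.15% of all genes), 5 at 15-20 min (17.7%), 5 at 25-30 min (15.1%) and 0 at 45-60 min (1.9%). The 5 at 25-30 min were PRE9, PUP1, RPN3, RPN6 and RPT3, with 4 higher and 1 lower. WT replicate 3, sampled only at 0 min, had a term of its own in the block. The block therefore left that library out of the WT comparisons.

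The ubiquitin receptor gene RPN10 fell at 15-20 min in WT. It had 73.8, 68.6, 67.7 and 66.7 CPM at 15-20 min, against 74.4, 84.6 and 205 CPM at 0 min, so that all 4 later libraries lay below the 3 earlier ones, by a narrow margin for replicate 1. The log2 fold change was -0.88 (SE 0.24, edgeR adjusted p = 0.0179). It rested on WT 0 min replicate 3, which held 205 CPM. Without replicate 1 the change was -1.11 and without replicate 2 it was -1.10, both called. Without replicate 3 the change was -0.21 (adjusted p = 0.459). With culture as a replicate block it was -0.23 (adjusted p = 0.372). The block also sets replicate 3 aside, so these 2 fits are not separate checks.

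RPN8, which encodes the lid subunit paired with the deubiquitinase Rpn11, also fell in that window. Its CPM were 495, 482, 550.1 and 397 at 15-20 min, against 989, 449 and 684 at 0 min, and the groups overlapped. The log2 fold change was -0.55 (SE 0.18, adjusted p = 0.0435). Without WT 0 min replicate 1, where RPN8 was at 989 CPM, it was -0.24 (adjusted p = 0.289), and the call also ended without replicate 3 (-0.57, adjusted p = 0.0571). Without replicate 2 it was -0.79 and called. Of 17 alternatives, 5 kept the call of RPN8 and 10 that of RPN10. The replicate block kept RPN8 (adjusted p = 0.0447) and called 4 other members, PRE9 (YGR135W), PUP1, RPN3 and RPN6 (YDL097C), with 3 of its 5 calls higher and 2 lower. Leaving out WT 0 min replicate 2 gave 11 calls at 15-20 min (8 lower, 3 higher, with 23.5% of all genes called). Leaving out replicate 3 gave 4 (3 higher, 1 lower). The share of all genes in that last fit is not given, so its count and direction are not results about the members.

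Core and cap differed in their median change from 0 min in WT, as a description. Medians of log2 fold changes were -0.07 for the core and -0.20 for the cap at 5-10 min, 0.00 and -0.19 at 15-20 min, 0.04 and -0.16 at 25-30 min, and -0.19 and -0.11 at 45-60 min. Those of all tested genes lay between -0.04 and 0.00. Within the cap, the 4 base genes other than ATPases, RPN1, RPN2 (YIL075C), RPN10 and RPN13, had a median of -0.45 at 5-10 min and all 4 were negative. In WT 0 min replicate 2 each of these 4 lay inside its range at 5-10 min, so that median rested on replicates 1 and 3. The 6 ATPase genes had a median of -0.07, and RPT5 (YOR117W), whose protein docks the cap onto the alpha ring, was positive (0.33, adjusted p = 0.181). At 45-60 min all 14 core genes and 15 of 18 cap genes had negative values, none called. Without WT 0 min replicate 1 the medians at 15-20 min were -0.15 for the core and -0.15 for the cap, and without replicate 3 they were 0.39 for the core and -0.04 for the cap.

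Against 15-20 min instead of 0 min, the beta subunit gene PRE4 fell late in WT. It had 90.8, 56.1, 69.7 and 70.1 CPM at 45-60 min, against 124, 159, 134 and 144 CPM at 15-20 min, and the groups did not overlap. The log2 fold change was -0.96 (SE 0.32, adjusted p = 0.0392, 95% interval -1.61 to -0.31). PRE4 was the only member called of 32 in this comparison, in which 15.6% of all genes were called. With the share of reads in no gene as a covariate its change was -0.15 (adjusted p = 0.818), and without WT replicate 2 it was -0.70 (adjusted p = 0.531). The call was kept under 11 of 16 alternatives. The replicate block called 5 members, PRE3 (YJL001W), PRE4, PUP1, RPN8 and RPN10, with 3 lower and 2 higher (21% of all genes called). Without WT replicate 1 there were 3 calls, PRE4 lower and RPN1 and RPN8 higher (19.6% of all genes).

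The 3 catalytic subunits were measured alongside. PRE3, the caspase-like subunit, had 334, 288, 227 and 286 CPM at 45-60 min in WT, against 364, 393, 415 and 397 CPM at 15-20 min, without overlap and not called (-0.47, adjusted p = 0.0602). PUP1, the trypsin-like subunit, had 259, 224, 217 and 228 CPM, against 314, 268, 313 and 272 CPM, again without overlap and not called (-0.33, adjusted p = 0.135). PRE2 (YPR103W), the chymotrypsin-like subunit, had 512, 553, 476 and 514 CPM, against 572, 470.2, 538 and 476 CPM, with overlap (0.00, 95% interval -0.28 to 0.27). The base scaffold gene RPN1 lay the other way, with 1268, 1279.9, 1232 and 1197 CPM in the late libraries, against 953, 887, 995 and 923 CPM in those of 15-20 min (0.41, adjusted p = 0.0987, not called).

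In the array strain no proteasome gene was called against 0 min in any window. The counts were 0 of 32 at 5-10 min (0% of all genes called, 0 members at an unadjusted p under 0.05), 0 at 15-20 min (0.04% of all genes, 0 members unadjusted), 0 at 25-30 min (2.14%, 3 members unadjusted) and 0 at 45-60 min (0.18%, 0 members unadjusted), and DESeq2 called 0 members in each. Against 15-20 min, 0 were called at 45-60 min (1.52% of all genes, 4 members unadjusted, 0 by DESeq2). With so few calls over all genes, these counts say little about the members. At 15-20 min the medians were 0.07 for the core and 0.03 for the cap. At 25-30 min they were -0.22 and 0.06.

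The step between 15-20 min and 25-30 min was compared after these values had been seen. In the array strain core genes lay lower at 25-30 min, 12 of 14 with a negative value and a median of -0.28, while the cap had 7 of 18 negative and a median of 0.03, and all genes 0.02. No member was called (3.1% of all genes called), 7 had an unadjusted p under 0.05 and 0 were called by DESeq2. In WT the medians were -0.01 for the core and 0.04 for the cap, with 0 called (0.04% of all genes), 0 unadjusted and 0 by DESeq2. The difference between the strains in this step was negative for all 14 core genes (median -0.26) and 11 of 18 cap genes (median -0.04), with 0 called (0% of all genes), 0 members unadjusted and 0 by DESeq2.

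PRE4 again had the widest step. It had 97.2, 78.6, 63.1 and 61.2 CPM at 25-30 min in the array strain, against 110.4, 166, 155 and 168 CPM at 15-20 min, without overlap (log2 fold change -1.01, SE 0.32, adjusted p = 0.0741). The alpha subunit gene PRE9 had 292, 263, 262 and 264 CPM, against 393, 379, 373 and 331 CPM, also without overlap (-0.45, adjusted p = 0.18). PRE8, another alpha subunit gene, had 48.6, 80.9, 70.4 and 70.0 CPM, against 92.3, 136, 136 and 74.0 CPM, with 1 library of 15-20 min inside the later range (-0.71, adjusted p = 0.106). Of the core genes 5 lay wholly below their earlier libraries: PRE1 (YER012W), PRE3, PRE4, PRE9 and PUP1. The share of all tested genes that lay wholly below was not counted, so this number has no background and is a description only.

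Cap genes lay on both sides of 0 over the same step. RPN1 had 1272, 1085, 1359.6 and 1219.8 CPM at 25-30 min, against 955, 833, 842 and 941 CPM at 15-20 min, all higher (0.47, adjusted p = 0.102). RPN5 (YDL147W), a lid subunit, had 391, 411, 442 and 404 CPM, against 369, 359.9, 353 and 296 CPM, all higher as well (0.26, adjusted p = 0.187). RPN11 (YFR004W), the deubiquitinase, had 164, 173, 141 and 171 CPM, against 204, 199, 199.8 and 243 CPM, all lower (-0.38, adjusted p = 0.148). The ATPase genes RPT1 (YKL145W, -0.27) and RPT5 (-0.24) were wholly lower too. None of these values was called with all libraries in the fit. With only the 18 array libraries in the fit 12 members were called, 7 lower (PRE1, PRE3, PRE4, PRE8, PRE9, PUP1 and RPN11) and 5 higher (RPN1, RPN2, RPN5, RPN8 and RPT2), while 30% of all genes were called. The replicate block called PRE4 alone, in a fit whose share of all genes is not given. Leaving out WT 0 min replicate 1 gave 6 calls (21.4% of all genes).

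**Figure D2:**
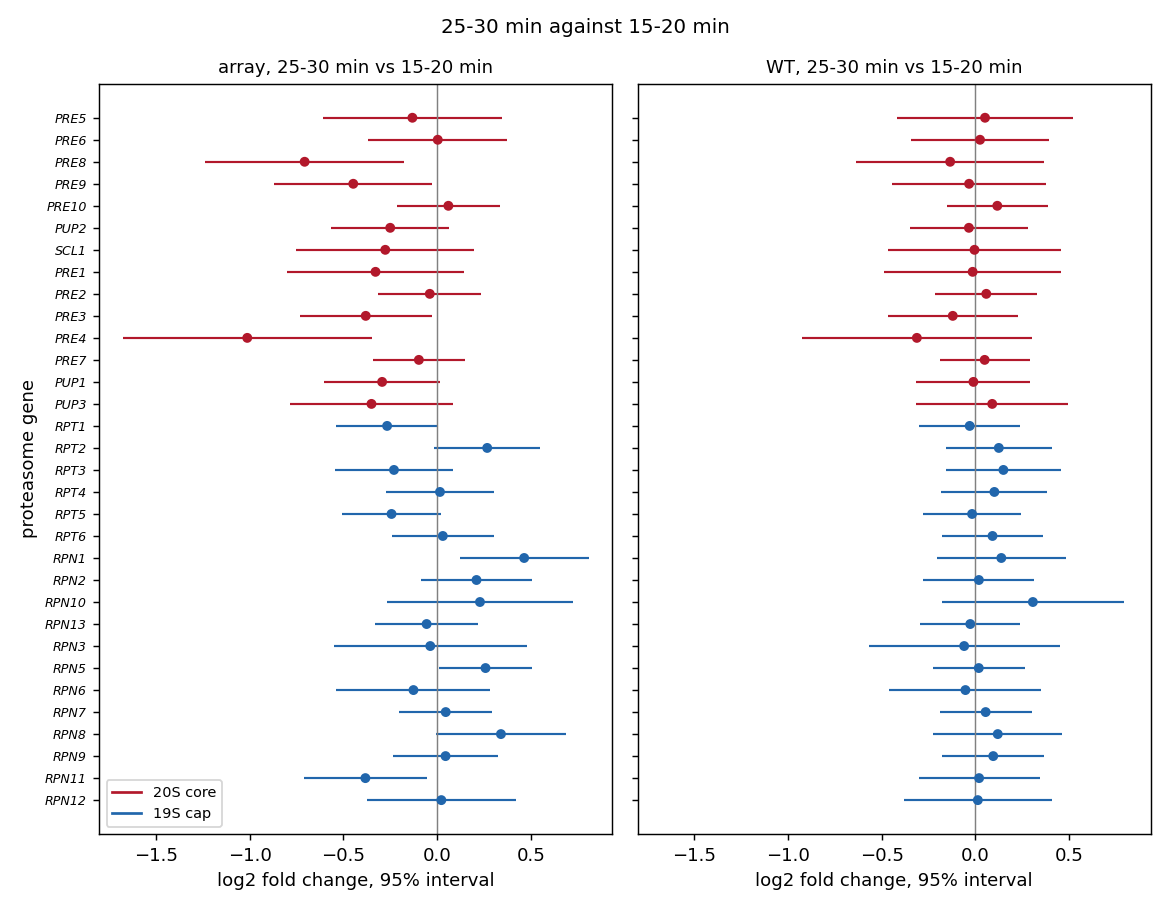
Log2 fold change with its 95% interval for each of the 32 genes, 25-30 min against 15-20 min, core above cap, with the array strain left of WT. In the array strain 12 of 14 core values lie left of 0 with a median of -0.28, and the cap median is 0.03.

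The balance of core to cap was then described per library, as the mean log2 level of the core minus that of the cap, each gene relative to its own mean. In the array strain it was 0.11 ± 0.04 at 5-10 min, 0.16 ± 0.10 at 15-20 min, -0.17 ± 0.03 at 25-30 min and 0.03 ± 0.03 at 45-60 min (SD, n = 4 libraries from 2 cultures each), after 0.15 and 0.09 in its 0 min libraries. In WT it was 0.04 ± 0.09 at 5-10 min, 0.09 ± 0.05 at 15-20 min, 0.00 ± 0.12 at 25-30 min and -0.17 ± 0.13 at 45-60 min, after -0.77, 0.09 and 0.02 at 0 min. All 4 array libraries at 25-30 min (-0.21 to -0.13) lay below all 4 at 15-20 min (0.05 to 0.25). In WT the low values came later, at 45-60 min (-0.28 to -0.03, against 0.02 to 0.12 at 15-20 min).

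**Figure D3:**
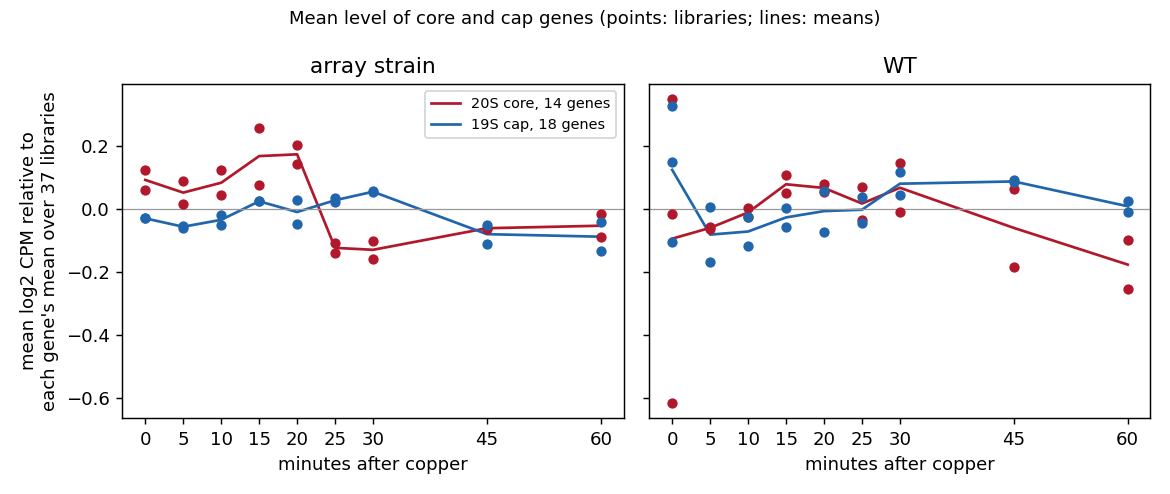
Mean log2 level of the core genes and of the cap genes in each library, relative to each gene's mean, against minutes after copper, with the array strain left of WT. The core lies below the cap at 25-30 min in the array strain (difference -0.17 ± 0.03) and at 45-60 min in WT (-0.17 ± 0.13).

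The balance moved with measures of library composition. Reads in no annotated gene made up 42.1 to 45.8% in the array libraries of 25-30 min, against 35.2 to 41.5% at 15-20 min, and 42.5 to 46.4% in the WT libraries of 45-60 min, against 35.6 to 39.7% at 15-20 min. Gene counts were 402378 to 498087 in the array libraries of 25-30 min and 555208 to 641502 at 15-20 min. WT 0 min replicate 1, the library with the lowest balance (-0.77), had the most such reads (50.6%). Across all genes the rank correlation of relative level with gene length was 0.0880 to 0.196 in the array libraries of 25-30 min and -0.219 to -0.109 at 15-20 min, over genes of 1 library, which are not independent replicates. Core genes are 597 to 867 bases long. The 5 shorter cap genes (471 to 1017 bases) had a median step of 0.02 in the array strain, with 2 of them negative. The 13 longer ones (1182 to 2982 bases) had 0.03, against -0.28 for the core. Over the 32 members the rank correlation of this step with gene length was 0.554, and over all genes 0.252. Whether length accounts for the step was not tested. With the share of reads in no gene as a covariate, a fit chosen after these values were seen, the array medians for 25-30 min against 15-20 min were -0.02 for the core and -0.01 for the cap. Time and this share change together in these libraries and cannot be told apart.

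**Figure D4:**
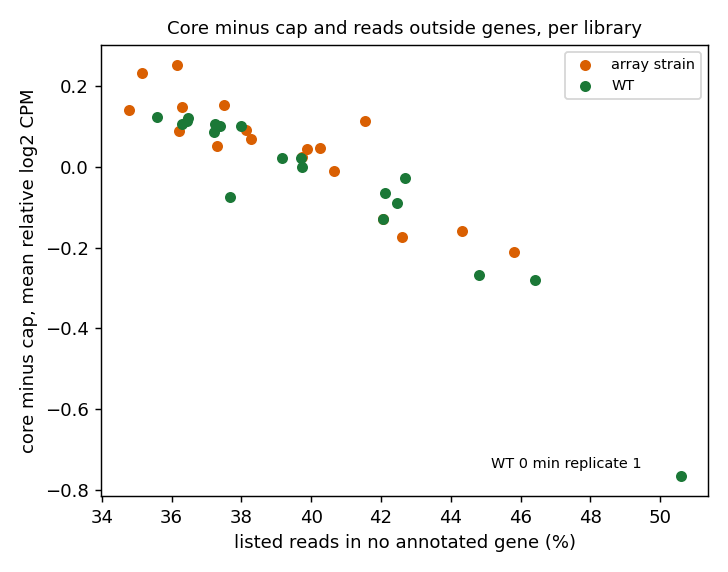
Core minus cap (difference of mean relative log2 levels) of each of the 37 libraries against the percentage of its listed reads that fell in no annotated gene, by strain. WT 0 min replicate 1 is at 50.6% and -0.77, and array libraries of 25-30 min are at 42.1 to 45.8% and -0.21 to -0.13.

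Between the strains, no proteasome gene was called at any time. The counts were 0 of 32 at 0 min (3.44% of all genes called, 7 members at an unadjusted p under 0.05), 0 at 5-10 min (3.84%, 1 member), 0 at 15-20 min (6.17%, 1 member), 0 at 25-30 min (11.5%, 1 member) and 0 at 45-60 min (2.76%, 1 member), and DESeq2 called 0 members in each. The response over all windows jointly differed between strains for 0 members (0% of all genes called, 3 members at an unadjusted p under 0.05, 0 by DESeq2). At 15-20 min 25 of 32 members lay higher in the array strain, with a median of 0.07 on the log2 scale, against 0.02 over all genes. At 25-30 min 12 of 14 core genes lay lower in the array strain (median -0.15), against 8 of 18 cap genes (median 0.02). At 45-60 min 15 of 18 cap genes lay lower (median -0.13), against 7 of 14 core genes (median 0.00). RPN1 had 891, 904, 855 and 1024 CPM in the array strain at 45-60 min, against 1268, 1279.9, 1232 and 1197 CPM in WT, without overlap and not called (-0.44, adjusted p = 0.2). The 95% intervals of the members together spanned -0.51 to 0.75 at 15-20 min and -1.28 to 0.69 at 25-30 min, so a missed threshold does not show equal levels. Without WT 0 min replicate 2, 9 members were called between the strains at 0 min, with 17.7% of all genes called in that fit.

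RPN4 (YDL020C), the transcription factor of these genes, was not called against 0 min or 15-20 min in either strain. It differed between the strains at 25-30 min, with 119, 101, 121 and 131 CPM in the array strain, against 147, 243, 172 and 204 CPM in WT, without overlap (log2 fold change -0.70, SE 0.19, adjusted p = 0.0156). The value was -0.43 without WT replicate 2 (adjusted p = 0.342) and -0.55 with the share of reads in no gene as a covariate (adjusted p = 0.0789). The call also ended without array replicate 1 (-0.72, adjusted p = 0.303) and without array replicate 2 (-0.67, adjusted p = 0.206). The change between 15-20 and 25-30 min did not pass the test of a difference between the strains (-0.59, adjusted p = 0.717). Among the 27 members with the exact Rpn4 element the median difference between the strains at 25-30 min was -0.11, none called. Among the 5 without the exact letters it was 0.02. Near matches were not searched. The windows of PRE5 and PUP1 hold agtggcaaa and that of RPN10 holds ttcgccacc, so these 5 are not shown to lack Rpn4 sites. In WT 15-20 min against 0 min, both called members, RPN8 and RPN10, were among the 5 without the exact element (median -0.34, against -0.08 for the 27 with it). The other 4 genes of the Rpn4 list, PDR1, PDR3, YAP1 and HSF1, were not called in any comparison.

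**Figure D5:**
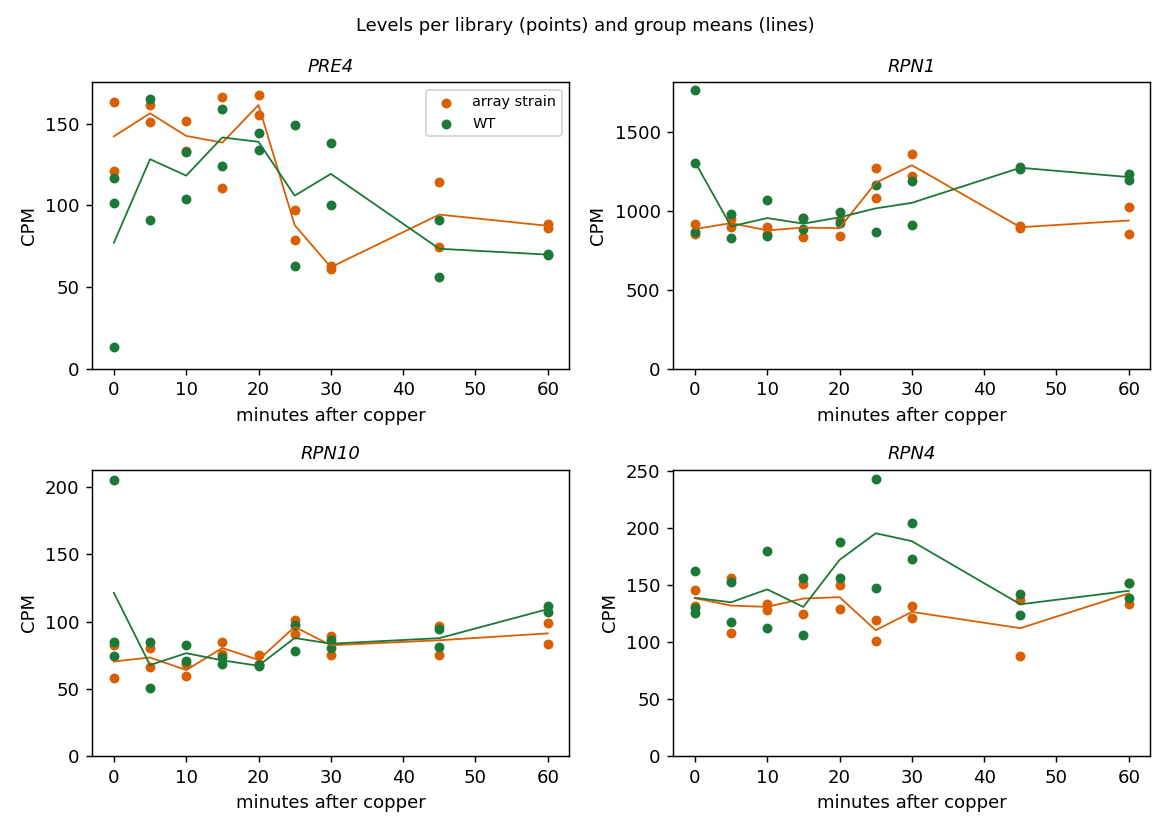
CPM of PRE4, RPN1, RPN10 and RPN4 in each library against minutes after copper, with array and WT libraries marked separately. PRE4 lies at 61.2 to 97.2 CPM in array libraries of 25-30 min, and RPN10 reaches 205 CPM in 1 WT library of 0 min.

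Other genes of the pathway were read from 4 lists. UBI4 (YLL039C), a polyubiquitin gene, rose in WT. Its log2 fold change against 0 min was 0.54 at 15-20 min (edgeR adjusted p = 0.0435) and 0.71 at 25-30 min (edgeR adjusted p = 0.00891). It was lower in the array strain than in WT at 25-30 min, with 119, 98.8, 75.3 and 107 CPM in the array strain, against 153, 222, 203 and 197 CPM in WT (-0.95, adjusted p = 0.000343), and likewise at 5-10 min (-0.65) and 15-20 min (-0.69). Before copper, at 0 min, UBI4 already had 72.6 and 81.3 CPM in the array strain, against 159.5, 104 and 101 CPM in WT, not called. Its repeats are close to those of other ubiquitin genes, and reads aligned to several places were not counted in a gene, so its level is uncertain. The rise of UBI4 in WT at 15-20 min kept its call under 4 of 17 alternatives (adjusted p up to 0.25, and 0.13 with the replicate block), and that at 25-30 min under 13 of 17. ECM29, which holds core and cap together, rose in WT at 15-20 min (0.52) and 25-30 min (0.45), and HUL5, a proteasome-bound ubiquitin ligase, rose at the same times (0.70 and 0.63). ECM29 kept its call under 13 of 17 alternatives at 15-20 min and 7 of 17 at 25-30 min, and HUL5 under 10 of 17 at 15-20 min and 5 of 17 at 25-30 min. At 25-30 min both lost it without WT 0 min replicate 2 (ECM29 0.40, HUL5 0.63) and without replicate 3 (ECM29 0.44, HUL5 0.58). SEM1, a small lid subunit outside the RPN names, fell in WT at 5-10 min (-0.91) and 15-20 min (-0.94), where WT 0 min replicate 1 held 1443 CPM and replicates 2 and 3 held 509 and 692 CPM. Without replicate 1 the values were -0.37 and -0.40, and neither was called. Against 15-20 min, SEM1 rose (0.69) and UBI4 fell (-0.55) in WT at 45-60 min, and with reads in no gene as a covariate SEM1 stood at 0.03 and was not called.

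Of 11 associated factors, 1 was called in WT at 5-10 min (2.4% of all genes called), 3 at 15-20 min (SEM1, ECM29 and HUL5, 12.5% of all genes) and 2 at 25-30 min (10.2% of all genes), and in the array strain 0 against 0 min in any window. Between strains CUZ1, a zinc-finger partner of Cdc48 and the proteasome, was higher in the array strain at 15-20 min (0.91, adjusted p = 0.00677). Before copper, at 0 min, CUZ1 already had 114 and 104 CPM in the array strain, against 45.2, 76.6 and 51.8 CPM in WT, not called. At 25-30 min SEM1 was higher (0.72, 0.24 and not called with reads in no gene as a covariate) and DDI1, a shuttle protein gene, lower (adjusted p = 0.0411). DDI1 kept its call under 6 of 16 alternatives, with log2 fold changes of -1.28 to -0.59 and adjusted p up to 0.552. Of 16 genes of the ubiquitin system and Cdc48, UBI4 and the conjugating enzyme genes UBC5 (1.17) and RAD6 (-1.31) were called in WT at 25-30 min, the last one lower, with 10.2% of all genes called. UBC5 had 2, 20 and 25 counts in the WT 0 min libraries, and without replicate 1, the one with 2 counts, its change was 0.87 and still called. RAD6 lost its call without WT 0 min replicate 3 (-1.20, adjusted p = 0.0522). UBC5, a close paralog of UBC4, was lower in the array strain at 25-30 min (-1.03). UBC4 was lower there at 25-30 min than at 15-20 min (-1.42, adjusted p = 0.0486), and its change was -0.47, not called, with reads in no gene as a covariate. Of 10 assembly chaperones NAS2 was called, lower in the array strain at 25-30 min than in WT (adjusted p = 0.00384, 11.5% of all genes called). It was also lower than at 15-20 min (adjusted p = 0.0309, 3.1% of all genes). It had 4, 3, 1 and 1 counts at 25-30 min, against 7, 12, 10 and 8 counts at 15-20 min. The counts at 25-30 min were all under the filter's minimum of 10, so NAS2 was tested through libraries where it was higher. The calls were kept under 12 and 11 of 15 alternatives.

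Correlations between members across libraries were low, and counting noise was not separated from them. The median pairwise correlation of log2 CPM over all 37 libraries was 0.23 between core genes, 0.16 between cap genes and 0.10 between a core and a cap gene, and -0.002 between all tested genes. Over the 32 libraries after 0 min it was 0.12, 0.08 and 0.07. Within the 16 array libraries after 0 min it was 0.23, 0.06 and 0.03, and within the 16 WT ones 0.19, 0.10 and 0.11. Libraries share cultures and depth, so these are descriptions without a test.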

How the data were processed

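QuantSeq 3′ mRNA libraries were analysed from the deposited table of raw read counts per gene (37 libraries). The submitters' processing notes name HTSeq 2.0.2, SAMtools 1.10, STAR 2.7.10a, FastQC 0.11.9 and the R64 genome. Annotation release and strand setting are not given in the sources used here. Rows that name no gene were left out of library sizes; reads in no gene made up 34.8% to 50.6% of listed reads. Genes were filtered with filterByExpr (minimum count 10), scaled by TMM, and tested with edgeR 4.0.16 (R 4.3.3) quasi-likelihood in 1 fit of 18 strain and time groups, with Benjamini-Hochberg adjustment per comparison. DESeq2 1.42.0 and other alternatives are given in the closing section, and those on reads outside genes, and the comparisons of 25-30 with 15-20 min, were chosen after seeing the data. The test was tried on simulated counts with 100 genes changed at each fold. For WT 15-20 min against 0 min it called 14 of 100 changes of 1.5-fold and 78 of 100 of 2-fold. For array 25-30 min against 15-20 min it called 29 and 77 of 100. In each case 4 unchanged genes were called. A count of 0 members called therefore does not show that changes of 1.5-fold were absent.

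Members and gene lists were chosen with earlier results of these data known. Per-library values are given for called members, PRE3, PUP1, PRE2, RPN1, RPN11 and RPN4; PRE8, PRE9, RPN5 and UBI4 were chosen after their values were seen. Libraries of 1 strain with the same replicate number were taken to come from 1 culture followed through the hour, as the growth protocol describes. Differences between replicates 1 and 2 correlated between times with a median of 0.085 in WT (-0.367 to 0.531) and 0.065 in the array strain (-0.167 to 0.191). Whether cultures were independent is not stated, so p-values measure the spread between these samples, which may be technical. No pair of replicates agreed within sampling noise (chi-square per degree of freedom 1.36 to 34.9).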

Additional observations from a re-analysis of the deposited data

How the results depend on the processing

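Counts of proteasome genes called depended on the WT 0 min libraries and on which libraries shared the fit. The share of all genes called also moved between fits, and it is given above for only some of them. A larger count of members in this section is therefore not by itself a result about the members. "Only the libraries compared" stands for a fit of all libraries of the strain, or, between strains, of the times compared. At 5-10 min in WT (0 called) DESeq2 gave 4, the replicate block 2 and reads outside genes as a covariate 1, and leaving out libraries gave 0 to 11. At 15-20 min in WT (2 called) DESeq2 gave 4, no filter on low counts 1, the replicate block 5 (3 higher), only the libraries compared 0, 0 and 5 min as baseline 0 and the covariate 1, and leaving out libraries gave 0 to 11, with the balance turned to higher without WT 0 min replicate 3 (4 calls, 3 higher). At 25-30 min in WT (0) the block gave 5 and leaving out libraries 0 to 7, the 7 without WT 0 min replicate 2. At 45-60 min in WT (0) the covariate gave 1 and leaving out libraries 0 to 4, the 4 without WT 0 min replicate 1. For 45-60 against 15-20 min in WT (1) the block gave 5, only the libraries compared 0 and the covariate 0, and leaving out libraries gave 0 to 6, with 3 calls, 2 of them higher, without WT replicate 1.

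In the array strain at 25-30 min (0) only the libraries compared gave 9, 0 and 5 min as baseline 1, and leaving out libraries 0 to 3. For 45-60 against 15-20 min (0) only the libraries compared gave 1 and leaving out libraries 0 to 1. For 25-30 against 15-20 min (0) the block gave 1, only the libraries compared 12 and leaving out libraries 0 to 7. Between strains, at 0 min (0) the block gave 2 and leaving out libraries 0 to 9, at 25-30 min (0) leaving out libraries gave 0 to 1, and at 45-60 min (0) only the libraries compared gave 2 and leaving out libraries 0 to 2. The block changed no other count. Taken as a median over members, core minus cap was -0.248 for 25-30 minus 15-20 min and -0.0625 for 45-60 minus 15-20 min in the array strain. Of 425 values for 26 single gene calls, 273 kept the call, 152 lost it and 0 turned. Only the libraries compared could not be fitted for the strain difference over all windows. The cause was not tested.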
